A study of Homo sapiens with 414 samples.

Results

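ARRDC3, ARRDC4, TXNIP, HBP1, CCNG2, PIK3IP1, IRS2, FOXO1 and FOXO3 are 9 of the 19097 human genes measured in single cells of H9 and H1 and in bulk H1 cultures. They were taken by name, as alpha-arrestins and genes tied to FOXO transcription factors, and were chosen on measured values: their variation between cells, whether they were high in the same cells, and their bulk level. Those values are therefore descriptions with no test. All 9 had a row in every table. H9 and H1 are human embryonic stem cell lines, grown undifferentiated on Matrigel in E8, a defined medium. The groups were 91 single H9 cells (passages 25 to 35), 92 single H1 cells (passages 20 to 30) and 48 bulk H1 libraries (passage 16), with no added treatment in any of them. Cells were caught on a microfluidic chip and their full-length cDNA was sequenced in 51-base reads at 24 and again at 96 libraries per lane, so both depths hold the same cells (91 H9 and 92 H1 cell numbers in common). Bulk libraries came from poly-A RNA primed with random hexamers, at 48 per lane.

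Levels are read counts per 1000000 human counts (CPM), from the libraries at 24 per lane unless stated. Human counts per library had a median of 3863508 in H9 cells, 3698611 in H1 cells and 2965023 in bulk. The labels do not give a second culture or chip for either line, so the cells of a line were treated as 1 sample and no p-value was computed. Line and passage range differed together between H9 and H1 and cannot be told apart. Any difference in chip or library preparation between the lines cannot be told apart from them either. Between H1 cells and bulk, chemistry and passage likewise cannot be told apart. The 10 pluripotency genes on a marker list each had reads in at least 50% of cells of both lines. POU5F1 stood at 163 CPM in H9 cells and 166 CPM in H1 cells, and NANOG at 229 CPM in H9 and 215 CPM in H1. Endoderm, mesoderm and trophoblast markers had a summed median of 0 CPM per cell in both lines, but some cells had reads. The highest cell summed to 52.4 CPM (endoderm), 124 CPM (mesoderm) and 20.8 CPM (trophoblast) in H9. In H1 these were 22.6, 63.2 and 38.3 CPM. FOXA2 had reads in 35 H9 and 5 H1 cells, and PDGFRA in 31 H9 and 18 H1 cells. The 6 neuroectoderm markers summed to a median of 18.4 CPM in H9 cells and 19.95 CPM in H1 cells, mostly from NES, which had reads in all 91 H9 and 92 H1 cells. The 6 fibroblast markers summed to a median of 191 CPM in H9 cells and 188 CPM in H1 cells. Most of this was THY1, at 188 CPM in H9 and 165 CPM in H1, followed by COL1A2, at 20.8 CPM in H9 and 28.7 CPM in H1, while COL3A1 and LUM stood at 0. By spike-in or mitochondrial share, 2 H9 and 5 H1 cells were unusual. In H9, 4 cells each resembled another of the 4 more closely than any remaining cells resembled each other. Some of the results that rest on these cells are also given without them below.

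FOXO transcription factors act downstream of insulin and PI3K signalling: AKT phosphorylates them and keeps them out of the nucleus, and when the pathway is quiet they switch on genes of growth arrest, stress resistance and insulin sensing. HBP1, CCNG2, IRS2 and PIK3IP1 are among the genes described as FOXO targets, and each acts on the cell cycle or on the pathway itself. TXNIP, ARRDC3 and ARRDC4 are alpha-arrestins, adaptor proteins that carry membrane proteins into the cell, and TXNIP and ARRDC4 are known targets of the glucose-sensing factors MondoA and MLX.

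Promoters are shown for the members in which a FOXO motif or an E-box was found, because the question is whether the genes move together. The 250 bases before each RefSeq start (GRCh38.p14) were searched on both strands for the FOXO core GTAAACA, which reads TGTTTAC on the other strand, and for the E-box CACGTG, the palindrome that MLX-containing and many other factors bind. All 9 members matched, with 16 windows in all. The FOXO core was found in 3 of 9 members (TXNIP, HBP1 and ARRDC3), against 2.98% of 35116 windows, and the E-box in 2 of 9 (ARRDC4 and CCNG2), against 6.34% of windows. Counted by window, 3 of the 16 member windows held the core and 2 of 16 the E-box. In TXNIP the core lay 124 to 118 bases before the start, in HBP1 173 to 167, and in 1 of the ARRDC3 windows 29 to 23. The E-box lay 210 to 205 bases before the start in ARRDC4 and 30 to 25 in CCNG2. A match describes letters and does not show binding. Only these exact letters were searched, so variant forms of either motif were not counted, and a member without a match may hold them. The printed stretches leave out bases that overlap an annotated exon, which removed the ARRDC3 and CCNG2 matches, and capitals mark the motif. TXNIP is at chr1:145996601-145996829 on the minus strand, HBP1 at chr7:107168753-107168960 on the plus strand and ARRDC4 at chr15:97960453-97960697 on the plus strand, each written 5′ to 3′ along the gene's strand.
TXNIP: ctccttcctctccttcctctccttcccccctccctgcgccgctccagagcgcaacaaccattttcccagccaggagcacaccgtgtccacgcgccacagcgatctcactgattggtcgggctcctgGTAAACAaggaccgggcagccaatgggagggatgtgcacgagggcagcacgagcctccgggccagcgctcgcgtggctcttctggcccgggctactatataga
HBP1: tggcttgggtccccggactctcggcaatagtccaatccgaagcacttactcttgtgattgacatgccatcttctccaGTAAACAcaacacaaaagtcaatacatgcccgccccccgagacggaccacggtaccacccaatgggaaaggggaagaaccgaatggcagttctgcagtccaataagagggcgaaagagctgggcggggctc
ARRDC4: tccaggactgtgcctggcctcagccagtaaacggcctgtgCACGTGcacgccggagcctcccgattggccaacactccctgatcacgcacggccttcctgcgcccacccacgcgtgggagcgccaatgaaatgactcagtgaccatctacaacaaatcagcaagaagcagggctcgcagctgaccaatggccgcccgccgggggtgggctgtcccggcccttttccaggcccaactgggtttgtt

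ARRDC3, an alpha-arrestin that recruits ubiquitin ligases to receptors at the membrane, varied most for its level among the 6 members that could be ranked in H9. Over 91 H9 cells its lowest level was 0, its median 100.5 and its highest 1969 CPM, and over 92 H1 cells these were 0, 80.1 and 499 CPM. The next highest H9 cells had 718, 610 and 473 CPM, so 1 cell stood far above the rest, whereas the top H1 cells lay close together at 499, 477 and 470 CPM. Reads were present in 89 of 91 H9 cells and 91 of 92 H1 cells. At the low end, 16 H9 cells and 20 H1 cells lay more than 10-fold under their line's median, so ARRDC3 was both very high and nearly silent in cells of the same line. The 5 highest H9 cells held 31.7% of the gene's total over cells, against 21.1% in the 5 highest H1 cells.

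Spread was measured as the squared coefficient of variation (CV2) over cells, as a log2 ratio to the median CV2 of the genes nearest to it in level. A ratio of at least 2 (log2 of 1) was called wide. ARRDC3 reached a log2 ratio of 2.80 in H9, rank 2 of 8481 genes, and 1.43 in H1. With each gene's highest cell left out (number 53 for ARRDC3), the H9 value was 1.63. Without the 10% of cells with the fewest genes it was 1.32. Cell 53 ranked 8 from the lowest of 91 in genes with reads (10116), and the next cell, number 45, ranked 6. Whether few genes per cell bear on their ARRDC3 level was not tested. The cell 53 level was measured at 1894 CPM at 96 libraries per lane, and over all cells the 2 depths ranked ARRDC3 alike (rho = 0.990 in H9 and 0.985 in H1). That is a repeat of the sequencing and not of the cDNA.

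Of the 6 members at 10 CPM or more, 2 were wide in H9 (ARRDC3 and HBP1), where 5.60% of all genes were. In H1, 3 of 6 were wide (ARRDC3, CCNG2 and FOXO1), where 9.33% of all genes were. Since variation between cells was used in the choice of the set, nothing is read from these shares.

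**Figure D1:**
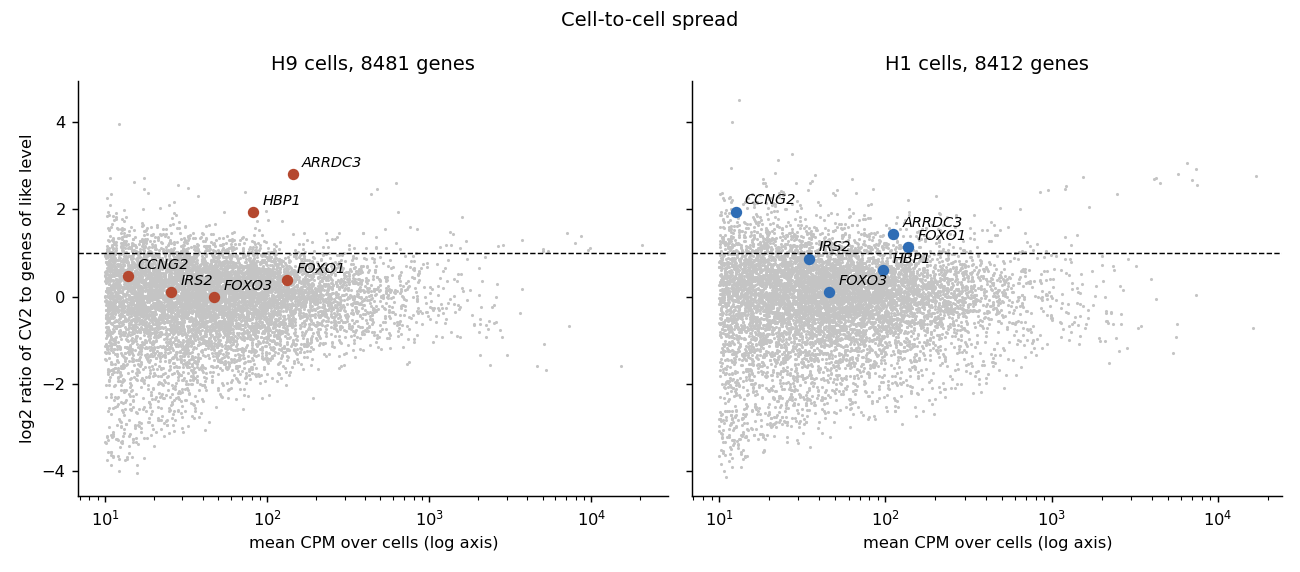
Log2 ratio of the squared coefficient of variation to that of genes of like level (vertical axis) against mean CPM over cells (log horizontal axis), for H9 cells on the left and H1 cells on the right. Grey points are all genes at 10 CPM or more, coloured points the 6 members that reached that level, and the dashed line is the 2-fold limit. ARRDC3 lies at 2.80 in H9 and 1.43 in H1, FOXO3 at 0.00 in H9 and 0.10 in H1.

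ARRDC4, an alpha-arrestin that like TXNIP restrains glucose uptake, was nearly absent from single cells. In H9 cells its lowest and median levels were 0 and its highest 121 CPM, with reads in 15 of 91 cells, and in H1 cells these levels were 0, 0.261 and 73.9 CPM, with reads in 47 of 92. Reads were thus found in more H1 cells, but at very low levels: the second-highest H1 cell had 11.6 CPM. Summed over cells the level was 2.99 CPM in H9 (95% interval 2.81 to 3.18) and 1.42 CPM in H1 (1.29 to 1.55). The 5 highest cells held 94.7% of the H9 total and 60.4% of the H1 total, so these sums describe very few cells.

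TXNIP, which binds and inhibits thioredoxin and restrains glucose uptake, showed the same few-cell pattern. Its lowest and median levels were 0 CPM in both lines. The highest cell had 72.4 CPM in H9 and 105 CPM in H1, and reads were present in 23 of 91 H9 cells and 10 of 92 H1 cells. Summed levels were 3.67 CPM in H9 and 1.91 CPM in H1, and 1 H1 cell, number 81, carried 63.02% of the H1 total over cells. All 4 of the resembling H9 cells had TXNIP reads, at 1.38 to 39.3 CPM. The log2 ratio of the H9 sum over the H1 sum was 0.94, and 0.76 without them, and the part of this resemblance in the TXNIP level was not tested. Neither ARRDC4 nor TXNIP reached 10 CPM in either line, so they were not compared between lines or ranked for spread.

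**Figure D2:**
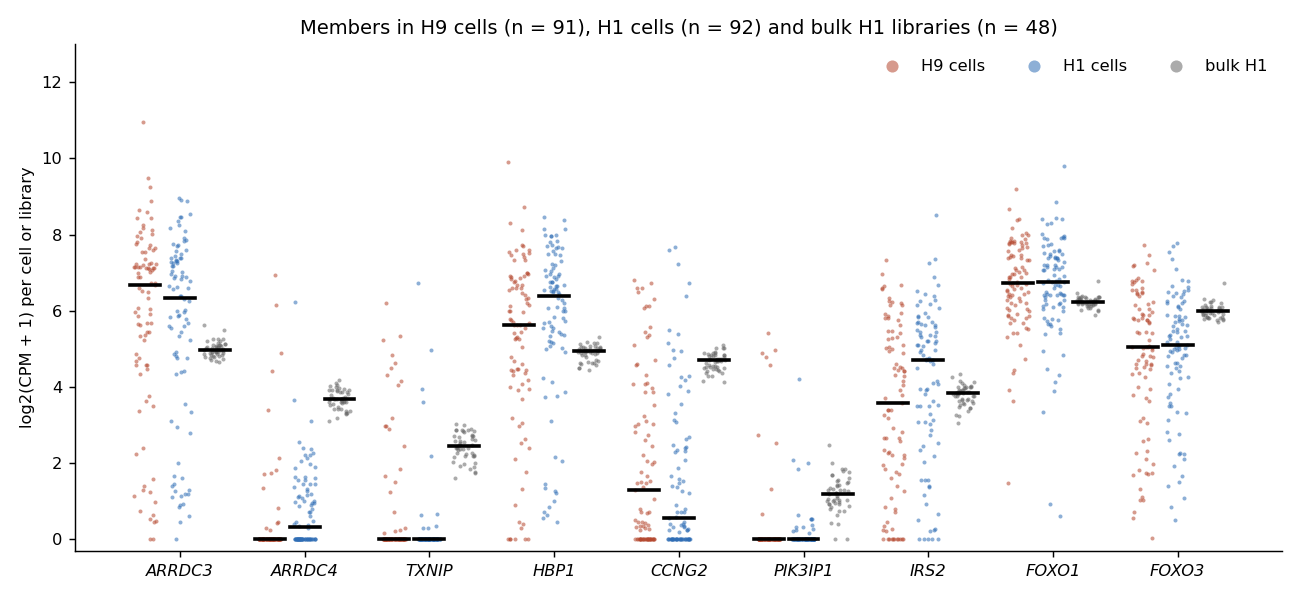
Level of each member as log2(CPM + 1) (vertical axis) in H9 cells (red), H1 cells (blue) and bulk H1 libraries (grey). Each point is 1 cell or 1 bulk library and bars are medians; ARRDC4, TXNIP and PIK3IP1 have cell medians at or near 0, and the bulk points of PIK3IP1 run from 0 to 4.59 CPM.

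HBP1 is an HMG-box repressor that slows entry into the cell cycle. It ranged over 0, 48.8 and 952 CPM (lowest, median and highest) in H9 cells and 0.380, 83.3 and 349 CPM in H1 cells. Every H1 cell had reads, while 6 of 91 H9 cells had none, and the H9 levels reached further both up and down. Its log2 spread ratio was 1.94 in H9, rank 26 of 8481, and 0.61 in H1. The H9 call did not hold when each gene's highest cell was left out: the value was then 0.73, below the limit. For HBP1 that cell was number 45, which also had the second-highest ARRDC3. Without the 10% of cells with the fewest genes the value was 0.80. Cell 45 had 4919 HBP1 counts and its level was 985 CPM at 96 per lane. Its spike-in share was 9.78% and its mitochondrial share 1.21%, beside H9 medians of 4.34% and 7.39%. Both lay just inside the limits for an unusual cell, and their part in its HBP1 level was not tested.

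CCNG2 encodes cyclin G2, an unusual cyclin that goes with cell-cycle arrest. In H9 cells its levels were 0, 1.47 and 111 CPM (lowest, median and highest), with reads in 62 of 91, and in H1 cells 0, 0.491 and 204 CPM, with reads in 59 of 92. Most cells of both lines held little or none, and a minority held much more. The 5 highest cells carried 39.3% of the total over cells in H9 and 63.3% in H1. The log2 spread ratio was 0.47 in H9 and 1.95 in H1, rank 92 of 8412. The H1 value stayed between 1.75 and 1.95 under the alternatives tried.

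PIK3IP1, a membrane protein that inhibits PI3K, had the lowest summed level of the members in both lines. Reads were found in 9 of 91 H9 cells, with a highest level of 42.03 CPM, and in 15 of 92 H1 cells, with a highest level of 17.4 CPM. The second-highest H1 cell had only 3.25 CPM. Summed levels were 1.497 CPM in H9 and 0.299 CPM in H1.

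IRS2, an adaptor that couples the insulin and IGF receptors to PI3K, spanned 0, 11.002 and 160 CPM (lowest, median and highest) in H9 cells and 0, 25.3 and 366 CPM in H1 cells. Its summed level was 25.9 CPM in H9 and 34.9 CPM in H1. The highest H1 cell, number 26, was 1 of the 5 unusual H1 cells, with a spike-in share of 19.7%, a mitochondrial share of 28.99% and the fewest genes with reads of all 92. The H1 log2 spread ratio of 0.87 was 0.13 without those 5 cells, and 1.49 when mitochondrial genes were left out of the totals. The H9 log2 ratio was 0.11.

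FOXO1, a FOXO factor with described roles in human embryonic stem cell pluripotency, was found in every cell of both lines. Its lowest, median and highest levels were 1.79, 104 and 589 CPM in H9 cells, and 0.519, 107.5 and 891 CPM in H1 cells. Only 1 H9 cell and 3 H1 cells lay more than 10-fold under their line's median, against 16 and 20 for ARRDC3. Its log2 spread ratio was 0.37 in H9 and 1.13 in H1. With each gene's highest cell left out (number 74 for FOXO1), the H1 value was 0.57, so the H1 call did not hold.

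FOXO3, the other FOXO factor of the set, was detected in 90 of 91 H9 cells and all 92 H1 cells. Levels ran over 0.0330, 32.03 and 210 CPM (lowest, median and highest) in H9 cells and 0.429, 33.3 and 220 CPM in H1 cells, nearly the same range in both lines. Its log2 spread ratio of 0.00 in H9 and 0.10 in H1 was that of an ordinary gene of its level. A pseudogene nearly identical to FOXO3 exists in the genome, and short reads can be split between them, so its level is uncertain to that extent.

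Per kilobase of the principal GENCODE transcript, which allows genes to be set side by side, 3 members stood well above the others in both lines. In H9 cells ARRDC3 had 38.9, HBP1 30.6 and FOXO1 23.6 CPM per kb. In H1 cells HBP1 had 33.3, ARRDC3 25.7 and FOXO1 24.5 CPM per kb. FOXO3 came next, with 6.25 CPM per kb in H9 and 6.16 in H1, then IRS2 with 3.18 in H9 and 4.29 in H1, and CCNG2 with 2.64 in H9 and 2.66 in H1. TXNIP, ARRDC4 and PIK3IP1 followed in that order in each line, at 1.26, 0.735 and 0.607 CPM per kb in H9 and 0.654, 0.348 and 0.121 in H1. Levels of single cells ran from near 0 upwards for every member, so neighbours in this order overlap widely.

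Between the lines, 0 of the 6 members that reached 10 CPM in either line were at least 2-fold apart in summed level, where 4.06% of 8851 genes were. A count of 0 of 6 is near that background, and nothing is read from it. The members too low to be compared had log2 ratios of 2.33 (PIK3IP1), 1.08 (ARRDC4) and 0.94 (TXNIP). ARRDC3 had the largest difference of those 6, at 162.9 CPM in H9 and 107.8 CPM in H1, a log2 ratio of 0.59. It was 0.10 without the 10% of cells with the fewest genes, 0.37 from the mean of per-cell CPM, and 0.53 at 96 per lane. HBP1 summed to 86.6 CPM in H9 and 94.3 CPM in H1 (log2 ratio -0.12), although its median cell was lower in H9, at 48.8 CPM against 83.3 CPM in H1. The log2 ratios of IRS2, FOXO1, FOXO3 and CCNG2 were -0.43, -0.05, 0.02 and -0.01. The median over all genes compared was -0.02.

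Spearman's rho of CPM over cells was computed for all 36 pairs, with 0.3 as the limit for calling a pair. No pair reached it in H9, where 1.04% of all gene pairs did, and none in H1, where 1.40% did. These counts are near the background, and whether members were high in the same cells was used in the choice of the set, so nothing is read from them. The H9 values ran from -0.19 to 0.30, with 17 pairs above 0 and 19 below, and the H1 values from -0.24 to 0.26, with 18 above and 18 below. For the 15 pairs among the 6 well-detected members the median was 0.10 in H9 and 0.01 in H1, beside 0.01 in H9 and 0.03 in H1 over all gene pairs. Cells of a line differ in depth and the labels give no preparation batch for them, so these are descriptions with no p.

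**Figure D3:**
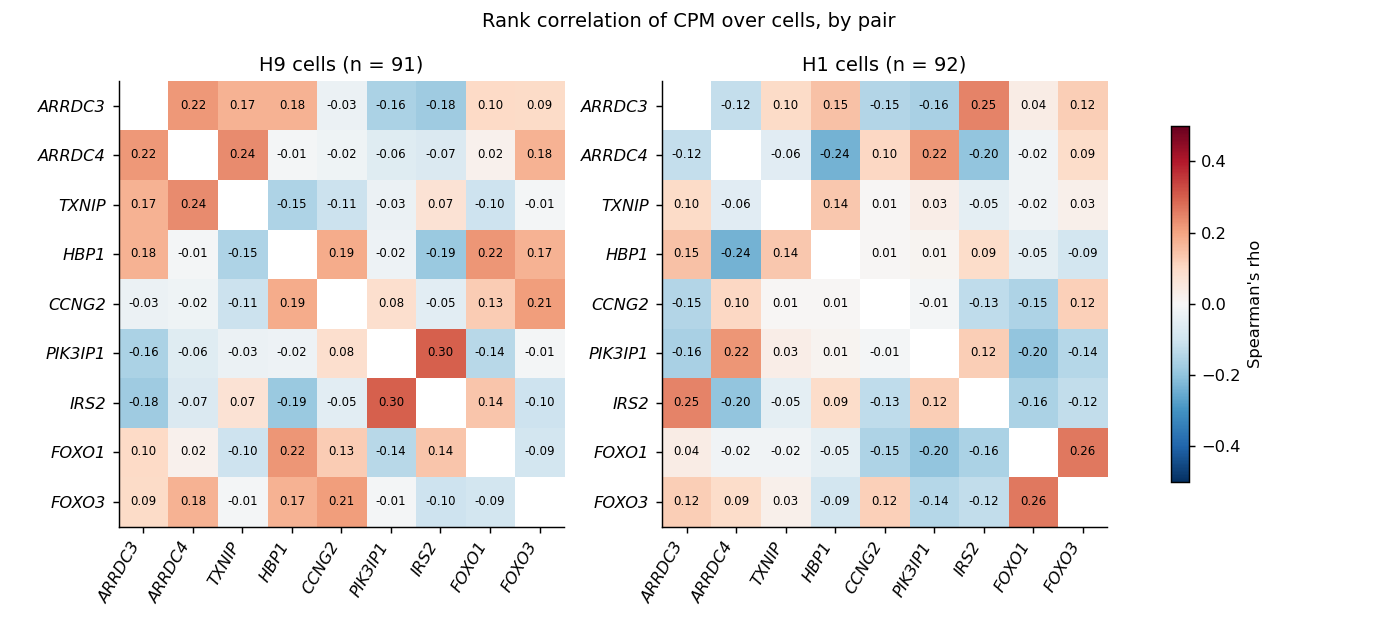
Spearman's rho of CPM over cells for each pair of members (rows and columns), for 91 H9 cells on the left and 92 H1 cells on the right. Red is positive and blue negative; the values lie between -0.19 and 0.30 in H9 and between -0.24 and 0.26 in H1, and the 3 pairs among ARRDC3, ARRDC4 and TXNIP lie at 0.17 to 0.24 in H9 and at -0.12 to 0.10 in H1.

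ARRDC3 and HBP1 had a weak positive correlation in both lines, 0.18 in H9 and 0.15 in H1. HBP1 ranked 438 of 8421 genes by likeness to ARRDC3 in H9, and 1352 of 8404 in H1. The 15 highest cells of each gene had 4 cells in common in each line, beside a median of 2 and a 5 to 95% range of 0 to 5 over all gene pairs. Single cells went both ways. H9 cell 45 had 718 CPM of ARRDC3 and 952 CPM of HBP1, but cell 53, with 1969 CPM of ARRDC3, had 4.26 CPM of HBP1 beside 405 CPM of FOXO1.

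**Figure D4:**
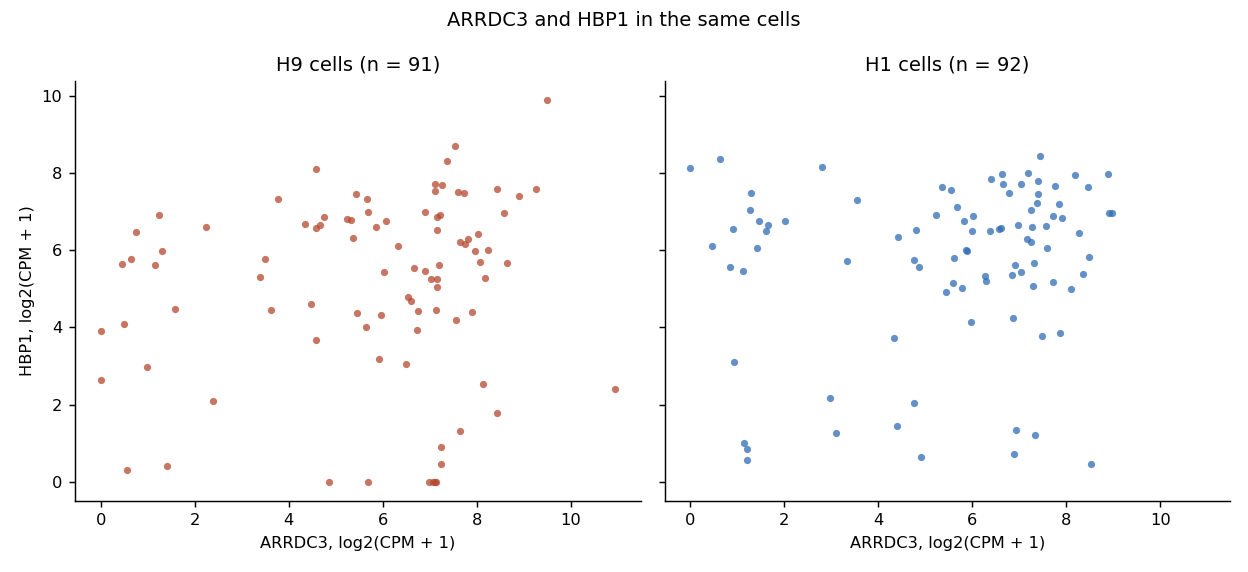
HBP1 (vertical axis) against ARRDC3 (horizontal axis) as log2(CPM + 1) in each of 91 H9 cells on the left and 92 H1 cells on the right. The rank correlation is 0.18 in H9 and 0.15 in H1; the H9 panel holds cell 45 at the top and cell 53 at the far right with little HBP1.

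The alpha-arrestins ARRDC4 and TXNIP shared their highest H9 cell but not most of the others. With ARRDC3, rho was 0.22 for ARRDC4 and 0.17 for TXNIP in H9, and -0.12 and 0.10 in H1. ARRDC4 and TXNIP had a rho of 0.24 in H9, where 7 cells had reads of both, of 15 cells with ARRDC4 and 23 with TXNIP. Cell 65 was the highest of all 91 cells for both, at 121 CPM of ARRDC4 and 72.4 CPM of TXNIP, and the next ARRDC4 cells, numbers 58 and 78, had 69.8 and 28.95 CPM of ARRDC4 with 23.8 and 6.86 CPM of TXNIP. The TXNIP cells next to cell 65, numbers 88, 80 and 43 with 39.3, 36.6 and 27.45 CPM of TXNIP, had no ARRDC4 reads. Cell 88 was 1 of the 4 resembling H9 cells. Over all alternatives, among them leaving those cells out, the H9 rho of ARRDC4 and TXNIP ran from 0.18 to 0.39. In H1 the same pair had a rho of -0.06, and 4 cells had both, of 47 with ARRDC4 and 10 with TXNIP. The top TXNIP cell of H1, number 81 with 105 CPM, had 0.521 CPM of ARRDC4 but 288.5 CPM of ARRDC3, 248.7 CPM of HBP1 and 105 CPM of CCNG2. These values rest on few cells, and the difference between the lines was not tested.

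Among the insulin-pathway members, PIK3IP1 and IRS2 had the highest rho in H9, 0.299, with 8 cells carrying both, and 0.35 at 96 per lane. Of the 9 H9 cells with PIK3IP1 reads, the highest, number 82, had 42.03 CPM of PIK3IP1 and 102 CPM of IRS2, and cell 85 had 28.7 CPM of PIK3IP1 with the highest IRS2 of the line, 160 CPM. Cell 85 also had no ARRDC3 reads, 1.79 CPM of FOXO1 and ranked 3 from the lowest in genes with reads. The rho of this pair was 0.12 in H1. ARRDC3 and IRS2 had opposite signs in the lines, -0.18 in H9 and 0.25 in H1, and so had FOXO1 and FOXO3, with -0.09 in H9 and 0.26 in H1. These differences between lines were not tested. H1 cell 74 had the highest FOXO1 of its line, 891 CPM, with 148 CPM of CCNG2 and 1.54 CPM of HBP1.

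The genes whose cell pattern was most like that of ARRDC3 were led in H9 by NUDCD1 (rho 0.40), LDHA (0.39), C1orf112 (0.38), PELO (0.38) and CDC45 (0.36), a part of the replicative helicase, and 25 of 8421 genes (0.297%) reached 0.3. LDHA, the enzyme that makes lactate at the end of glycolysis, had a rho of -0.06 with ARRDC3 in H1. In H1 the list was led by ADNP (0.49), a chromatin-bound homeobox protein, HMGN1 (0.40), a nucleosome-binding protein, AMMECR1L (0.37), AGA (0.37) and RASA1 (0.37), and 41 of 8404 genes (0.488%) reached 0.3. In the other line, for those of the 10 nearest ranked there, rho ran from -0.31 to 0.22. For HBP1 the nearest were ZNF268 (0.43), PDLIM5 (0.40) and GTF2B (0.39) in H9, and DUS1L (0.46), IK (0.43) and LYSMD3 (0.42) in H1. Genes at 0.3 or above with HBP1 were 37 in H9 (0.439%) and 68 in H1 (0.809%). TXNIP did not reach the level at which nearest genes were ranked in either line.

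Of 24 genes of the insulin, PI3K and AKT pathway, 20 were compared, and 2 were at least 2-fold higher in H9, where 2.23% of all genes were. These were AKT1, the kinase that inactivates FOXO factors, with 25.6 CPM in H9 and 6.65 CPM in H1, and SGK1, a related kinase, with 42.3 CPM in H9 and 20.0 CPM in H1. None of the 20 was at least 2-fold lower, where 1.83% of all genes were, and their median log2 ratio was -0.17. Of 23 other FOXO family members and described FOXO targets, 10 were compared. TSC22D3, a glucocorticoid-induced leucine zipper, was higher in H9, with 31.1 CPM in H9 and 14.9 CPM in H1. CAT, the gene for catalase, was lower, with 0.107 CPM and reads in 1 of 91 H9 cells, against 20.2 CPM and reads in 74 of 92 H1 cells. Of 10 genes of MondoA, MLX and the thioredoxin system, 7 were compared and none was 2-fold apart. NEDD4, a ubiquitin ligase that alpha-arrestins recruit, had 13.9 CPM in H9 and 5.62 CPM in H1, and was 1 of 5 compared among 10 other arrestins and NEDD4-type ligases.

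The same pathway lists were set against ARRDC3 and HBP1 across cells. At rho of 0.3 or above with ARRDC3 stood 0 of 17 insulin-pathway genes in H9 and 0 of 19 in H1, 0 of 7 FOXO genes in H9 and 0 of 9 in H1, and 0 of 7 MondoA and thioredoxin genes in each line. Over all genes these shares were 0.297% in H9 and 0.488% in H1, so counts of 0 are near the background. The same insulin-pathway, FOXO and MondoA lists also gave 0 with HBP1, beside 0.439% of all genes in H9 and 0.809% in H1. Of 16 glycolysis genes, LDHA alone reached 0.3 with ARRDC3 in H9, and GAPDH with HBP1 in H9 at 0.32. NEDD4L, a ubiquitin ligase, stood at 0.35 with HBP1 in H1. CCNB1, alone of 16 genes of the G2/M cell-cycle phase, reached 0.31 with HBP1 in H1. ADM, on a hypoxia list, stood at -0.33 with ARRDC3 in H9, where 28 of 8421 genes passed 0.3 on the negative side. Depth, genes with reads, mitochondrial and spike-in share and summed marker levels were also set against each member, as 180 values per line. In H9 none lay beyond 0.3 in either direction, with a range of -0.29 to 0.29. In H1, 2 did: IRS2 with the summed mesoderm markers (-0.31), and ARRDC4 with summed glycolysis genes (-0.53). For ARRDC3 the values with genes per cell were 0.03 in H9 and 0.07 in H1.

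In bulk H1 the order of the members was another. Over 48 libraries, mean levels were 31.2 ± 4.67 CPM for ARRDC3, 12.03 ± 2.19 for ARRDC4 and 4.56 ± 1.33 for TXNIP (SD, n = 48). HBP1 averaged 29.1 ± 3.92 CPM, CCNG2 24.5 ± 3.94, PIK3IP1 1.41 ± 0.824 and IRS2 12.997 ± 2.46. FOXO1 averaged 74.8 ± 7.69 and FOXO3 63.6 ± 8.86 CPM. The labels do not say whether these libraries are separate cultures, so the SD may be technical only. Per kilobase the bulk order was FOXO1 at 13.05, HBP1 at 10.3, FOXO3 at 8.67, ARRDC3 at 7.45, CCNG2 at 4.44, ARRDC4 at 2.95, IRS2 at 1.60, TXNIP at 1.56 and PIK3IP1 at 0.571 CPM per kb. IRS2 (SD 0.303) and TXNIP (SD 0.454) did not differ beyond their spread, and FOXO3 (SD 1.21) and ARRDC3 (SD 1.11) differed by about the size of their SDs.

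ARRDC3 in bulk had a CV2 of 0.0224, of which 0.0108 is the counting part, beside 1.09 over H1 cells. The lowest, median and highest libraries had 24.2, 30.5 and 48.5 CPM. In bulk H1, 1 library was the highest for FOXO3 at 105 CPM (next 77.8), for FOXO1 at 109 CPM (next 87.7) and for IRS2 at 19.1 CPM (next 18.1). A bulk level cannot tell fewer expressing cells from less RNA per cell.

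Summed H1 cells and bulk H1 gave different levels for most members, as for most genes. With mitochondrial genes left out of both, 4 of 7 members compared were at least 2-fold apart, where 51.6% of 9647 genes were. Higher in cells were 3, where 30.1% of all genes were, and lower in cells was 1, where 21.5% were. These shares are near the background. ARRDC3 stood at 115 CPM over cells and 31.2 ± 4.67 CPM over bulk libraries (log2 ratio 1.88), and 58 of 92 cells lay above the highest bulk library. For HBP1 the cells summed to 100.3 CPM, against 29.1 ± 3.92 CPM over bulk libraries (1.78), with 67 cells above the highest library. For IRS2 these were 37.1 CPM over cells and 12.997 ± 2.46 CPM over bulk libraries (1.51), with 51 cells above. FOXO1 stood at 149 CPM over cells and 74.8 ± 7.69 CPM over bulk libraries, a fold of 1.997, just under the limit. Its log2 ratio was 1.15 without the 10% of cells with the fewest genes and 1.10 without the unusual cells. Over all alternatives it ran from 0.81 to 1.15, so FOXO1 lay on either side of the limit.

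ARRDC4 went the other way from ARRDC3. Summed H1 cells had 1.51 CPM and bulk 12.03 ± 2.19 CPM, 7.98-fold lower in cells, and every bulk library had at least 7.62 CPM while 1 of 92 cells exceeded the highest library, at 17.1 CPM. CCNG2 and FOXO3 were lower in cells by less than 2-fold, with log2 ratios of -0.65 and -0.40. TXNIP stood at 2.04 CPM over cells and 4.56 ± 1.33 CPM over bulk libraries, and PIK3IP1 at 0.318 CPM over cells and 1.41 ± 0.824 CPM over bulk libraries. Both were too low to be compared. The median over all genes was 0.24, so these ratios are read against that shift. GC content of the principal transcript was 37.6% in ARRDC3 and 42.5% in HBP1, but 58.7% in IRS2, and 43.4% in ARRDC4. The part of GC content in these ratios was not tested.

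**Figure D5:**
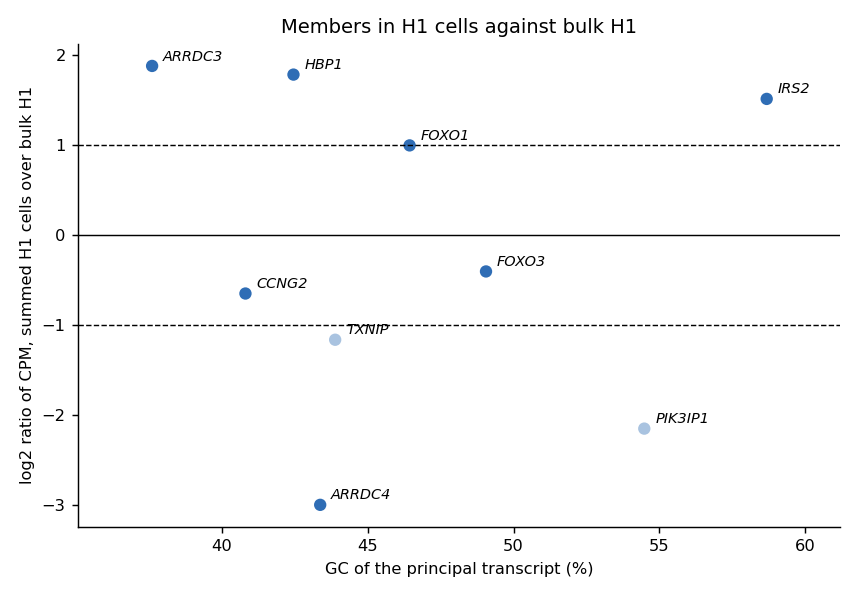
Log2 ratio of CPM in summed H1 cells over bulk H1 (vertical axis) against GC content of the principal transcript in percent (horizontal axis), 1 point per member. Dashed lines mark 2-fold either way, and pale points (TXNIP, PIK3IP1) were below 10 CPM in both; ARRDC3, HBP1 and IRS2 lie above 1 and ARRDC4 lies at -3.00.

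The pathway lists are read against the same background, 30.1% higher and 21.5% lower in cells. Of 22 insulin-pathway genes compared, 5 were at least 2-fold higher in cells, among them INSR, the insulin receptor, with a log2 ratio of 2.09. Lower in cells were 7, led by RPTOR (-3.89) and AKT1 (-3.55). Of 14 other FOXO genes, 2 were higher and 5 lower, and FOXO4, another factor of the family, stood at 0.599 CPM over cells and 64.1 ± 6.78 CPM over bulk libraries. Of 7 MondoA and thioredoxin genes 3 were higher (MXI1, TXN2 and MLX) and none lower, and of 7 arrestins and ligases 2 were lower (ARRB2 and ARRB1) and none higher.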

How the data were processed

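The authors deposited expected counts (RSEM's estimates for each gene), made with RSEM 1.2.3 on Bowtie 0.12.8 alignments to hg19 after base calling with CASAVA 1.8.2, per the submitters' processing notes. The annotation is not given in the sources used here. Expected counts were used as deposited and scaled to CPM (1000000 human counts, spike-ins left out). Every column matched a sample title (0 unmatched). FOXO6 was not analysed here.

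The members and gene lists were chosen with earlier results of these data known. Named were all 9 members, the 10 genes nearest to ARRDC3 and 5 nearest to HBP1 and TXNIP by Spearman's rho among genes at 10 CPM or more with reads (a rounded count of at least 1) in at least 50% of cells, up to 4 genes per list, and POU5F1, NANOG and SOX2 as references. Single cells named were chosen after their values were seen. Libraries held 1568326 to 7758948 human counts in H9 cells, 1136295 to 8096756 in H1 cells and 2099639 to 3964675 in bulk. Intervals on sums are exact Poisson at 95% and cover counting error only; amplified reads are not independent molecules. A cell was called unusual when spike-ins passed 10% of its counts, or when mitochondrial genes took less than 1% or more than 20%. The 4 resembling H9 cells were each correlated above 0.75 with another of them (Pearson, log2(CPM + 1)). Whether every pair among the 4 passed that limit was not recorded.

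Alternatives were the depth of 96 per lane, TMM (edgeR) and median-of-ratios scaling, a minimum of 1 CPM, the mean of CPM over cells, no mitochondrial genes, thinning, partial and Pearson correlation, a rho limit of 0.4, and leaving out cells. Leaving out the 4 resembling cells was added after the data had been seen. Promoters came from RefSeq on GRCh38.p14, transcript lengths and GC from GENCODE, and no coordinate was carried to hg19. Scripts were tested on simulated data and ran in Python 3.11.15 (numpy 2.4.6, pandas 2.3.3, scipy 1.17.1, matplotlib 3.10.9) and R 4.3.3 (edgeR 4.0.16).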

Additional observations from a re-analysis of the deposited data

How the results depend on the processing

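Of 48 recomputed counts of members or pairs, 36 stayed within 1.5 times the main count. Of 826 recomputed member values, 692 moved by no more than 0.1, 134 moved further and 0 called values changed sign. Only values called in the main setting could be counted as changing sign. No rho and no ratio between the lines was called there, so none of them could be counted. Signs did change among uncalled values: the rho of ARRDC3 and FOXO1 in H1 ran from -0.12 to 0.24. Some recomputed values could not change at all: the minimum of 1 CPM altered no log2 ratio or rho. A rho limit of 0.4 likewise could not add pairs. At a minimum of 1 CPM, 2 members were at least 2-fold apart between H9 and H1 (ARRDC4 and PIK3IP1, both under 3 CPM), against 0, and 5 were wide in H1, against 3, since more members were admitted. Of the 2 members wide in H9, 1 was left without each gene's highest cell and 1 without the 10% of cells with the fewest genes, and both times it was HBP1 that dropped out. Pairs at rho of 0.3 in H9 numbered 1 at 96 per lane, 1 with mitochondrial genes left out of totals, 1 without the unusual cells, 1 when thinned to 1000000 counts, 1 with partial rank correlation and 1 without the 4 resembling cells. Each was PIK3IP1 and IRS2, at 0.30 to 0.40, against 0.299. Pearson correlation of log2(CPM + 1) gave 2 pairs in H9 (with ARRDC4 and TXNIP at 0.39) and 1 in H1 (FOXO1 and FOXO3, 0.38). The count against bulk was 4 to 6. No paired analysis was possible because no result comes from a test and the cell numbers that H9 and H1 share are only names. At a summed level under 3 CPM, ARRDC4 and PIK3IP1 rest on few reads per cell, and the 2 depths ranked H1 cells by PIK3IP1 with a rho of only 0.490.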

Other observations

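ARRDC4 in H1 cells had the largest in size of the 180 values per line set against per-cell measures, a rho of -0.53 with the summed level of 16 genes of glucose uptake and glycolysis (n = 92 cells). It was singled out after its value was seen. The 5 to 95% range over all well-detected genes was -0.17 to 0.29. Those genes had 10 CPM or more, whereas ARRDC4 summed to 1.42 CPM in H1. No range was computed for genes of like level. Cells with ARRDC4 reads had a median summed glycolysis level of 15795 CPM and cells without them 18452 CPM. Of the 16 genes, 14 had a negative rho with ARRDC4, the lowest being ENO1 at -0.44. The value was -0.50 without the 5 unusual cells, -0.47 without the 10% of cells with the fewest genes and -0.43 at 96 per lane. In H9 cells it was 0.04, with ARRDC4 reads in 15 cells only. TXNIP, the other member known to respond to MondoA, had -0.05 in H9 and 0.07 in H1. The ARRDC4 levels behind the H1 value are small, with 28 of 92 cells at 5 counts or more, and the difference between the lines was not tested.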
